A study of Mus musculus with 10 samples.

Results

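The genes described here encode 37 proteins of the presynaptic terminal, out of 48709 gene identifiers counted in each library. They were chosen by symbol, with each Ensembl identifier matched to GENCODE mouse M21. Earlier results of these data were known when they were chosen. By role, 12 act on or in the synaptic vesicle membrane, 12 are SNARE proteins or their regulators, 8 build the active zone and 5 serve vesicle endocytosis. Polyadenylated RNA was sequenced from hippocampal neurons of the mouse, kept in primary culture for 10 days in vitro. The cultures had been given tunicamycin at 2 ug/mL for 6 h (6 libraries) or DMSO, the solvent control, for the same 6 h (4 libraries). The sources used here give no strain, genotype, sex or age of the source animals. The labels number the libraries within each group but do not say whether each is a culture of its own, and the spread that p-values rest on may therefore be technical.

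Tunicamycin stops cells from building the lipid-linked sugar that N-glycosylation needs, so glycoproteins misfold in the endoplasmic reticulum and set off the unfolded protein response. At a presynaptic terminal, vesicles filled with transmitter are held at the active zone by large scaffold proteins, primed by assembly of SNARE proteins across the vesicle and plasma membranes, and fused when a synaptotagmin binds calcium. The vesicle membrane is then recovered by clathrin adaptors and dynamin. Several of the vesicle proteins, among them SV2 and synaptophysin, are glycoproteins made in the endoplasmic reticulum, while synapsins, complexins, Rab3 and the active zone scaffolds are made in the cytosol.

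Each library held between 21055289 and 29234887 counts. Hspa5, which encodes the endoplasmic reticulum chaperone BiP and served as the check that tunicamycin acted, averaged 3206 ± 141 CPM with tunicamycin (SD, n = 6) and 616 ± 40.2 CPM with DMSO (SD, n = 4). CPM here means counts per 1000000 of the library total after scaling by edgeR's TMM factor. The cells carried neuronal identity: all 12 neuronal markers were detected, with a summed level of 6590 to 7022 CPM with tunicamycin and 8007 to 8488 CPM with DMSO, and 10 of the 12 fell. The cultures also held RNA of other cells. The 11 astrocyte markers summed to 2217 to 2472 CPM with tunicamycin and 3247 to 3718 CPM with DMSO, and all 11 fell. The 10 microglial markers summed to 12.1 to 14.7 CPM with tunicamycin and 16.8 to 20.5 CPM with DMSO. Of these only 7 had enough counts to be tested, and 5 of the 7 fell. The 4 oligodendrocyte precursor markers, of which 3 fell, summed to 86.2 to 109.9 CPM with tunicamycin and 144.9 to 201.3 CPM with DMSO. The 6 endothelial markers, of which 4 were tested and 1 rose, summed to 52.6 to 78.6 CPM with tunicamycin and 35.9 to 74.7 CPM with DMSO. This sum was nearly all Kdr, at 58.3 CPM with tunicamycin and 50.7 CPM with DMSO. The next highest, Flt1, averaged 1.61 and 0.691 CPM, so the sum does not show endothelial RNA. No marker was at 0 in all libraries. Fell and rose mean called by edgeR's test at an adjusted p under 0.05. By it 32.5% of all tested genes fell and 31.8% rose.

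Promoter stretches of 6 of these genes are shown so that the letters upstream of genes that changed in different directions can be compared. They come from RefSeq on GRCm38.p6, read 5′ to 3′ on the strand of the gene, and hold only bases upstream of both the RefSeq and the GENCODE start, so that some stop short of the RefSeq start. In the edgeR fit Syngr1 fell the most of the vesicle genes, and Cplx1 the most of the SNARE genes after Syt11. In the same fit Stxbp5 rose, Unc13a was the one active zone gene that fell, and Dnm1 led the endocytic genes. Syn1, with a marginal fall, is shown for its matches. Capitals mark a GC box (GGGCGG or its reverse complement) in 4 of the stretches, and in Syn1 mark the left part of the RE1 element (TTCAGCACC) followed by a cAMP response element (TGACGTCA). Dnm1 has none of these letters in the stretch shown. Its GC box lies in the part of its window after that stretch, and so not upstream of both starts.
Syngr1 chr15:80091084-80091333, plus strand: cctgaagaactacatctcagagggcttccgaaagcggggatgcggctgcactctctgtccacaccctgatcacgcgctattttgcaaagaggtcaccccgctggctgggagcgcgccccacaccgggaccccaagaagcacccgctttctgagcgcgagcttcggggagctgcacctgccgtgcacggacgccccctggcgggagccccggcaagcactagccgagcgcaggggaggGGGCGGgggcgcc
Syn1 chrX:20921005-20921168, minus strand: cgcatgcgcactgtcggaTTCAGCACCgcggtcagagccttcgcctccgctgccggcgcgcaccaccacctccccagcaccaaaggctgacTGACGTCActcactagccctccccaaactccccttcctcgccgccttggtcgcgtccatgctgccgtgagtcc
Cplx1 chr5:108550028-108550277, minus strand: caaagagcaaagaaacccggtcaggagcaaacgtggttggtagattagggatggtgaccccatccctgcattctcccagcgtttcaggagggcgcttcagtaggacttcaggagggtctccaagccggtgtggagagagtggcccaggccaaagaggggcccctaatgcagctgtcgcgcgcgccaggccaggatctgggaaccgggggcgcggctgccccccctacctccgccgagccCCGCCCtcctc
Stxbp5 chr10:9901080-9901290, minus strand: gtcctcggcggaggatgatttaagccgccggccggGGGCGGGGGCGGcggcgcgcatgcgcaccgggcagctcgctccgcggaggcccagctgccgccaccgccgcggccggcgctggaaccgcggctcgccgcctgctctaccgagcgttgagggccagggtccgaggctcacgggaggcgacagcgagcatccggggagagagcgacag
Unc13a chr8:71671758-71672007, minus strand: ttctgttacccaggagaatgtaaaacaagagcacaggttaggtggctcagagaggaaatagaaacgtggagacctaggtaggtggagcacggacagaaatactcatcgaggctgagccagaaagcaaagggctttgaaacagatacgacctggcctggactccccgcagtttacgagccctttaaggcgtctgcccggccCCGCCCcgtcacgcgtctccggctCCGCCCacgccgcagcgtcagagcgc
Dnm1 chr2:32353339-32353579, minus strand: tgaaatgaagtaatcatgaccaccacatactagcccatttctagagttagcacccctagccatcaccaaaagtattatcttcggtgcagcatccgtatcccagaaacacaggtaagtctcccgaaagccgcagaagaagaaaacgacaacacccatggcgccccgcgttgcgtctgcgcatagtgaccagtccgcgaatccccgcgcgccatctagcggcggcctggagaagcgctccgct

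RefSeq windows of 250 bases before to 50 bases after a transcript start were matched for 30 of the 37 genes; some have several windows. Both strands were searched for 8 letter strings, and CCAAT or its reverse complement lies within both forms of the ER stress response element. The GC box was present in 25 of the 30 genes, against 67.7% of the 11502 expressed genes with a window and 38.2% of all 27025 genes with one. CCAAT was present in 8 of 30, against 42.5% of expressed genes. The ER stress response element, its second form (element II) and the unfolded protein response element (TGACGTGG) had no match in the 30 genes. They were found in 0.165%, 0.0696% and 1.03% of expressed genes. The C/EBP-ATF element (TGATGNAA) matched Syt1 alone, against 2.75% of expressed genes, and TGACGTCA matched Syn1 and Sh3gl2, against 3.53%. The RE1 part matched Syn1 and Unc13a, against 0.53% of expressed genes, the Unc13a match lying outside the stretch shown. A match of letters is a description and not a binding site.

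Most transcripts of the vesicle and fusion machinery were lower after tunicamycin, by small amounts, while most active zone genes did not pass the test. Of the 37 genes, 23 fell and 3 rose (Syt4, Stxbp5 and Rims2) by edgeR's quasi-likelihood test at an adjusted p under 0.05 over the 15660 genes tested, and 11 did not pass. That is 26 of 37, where 64.3% of all tested genes changed in either direction. All 37 had passed the filter on low counts. The response of the whole transcriptome was broad, so these counts are read against it: 32.5% of all tested genes fell and 31.8% rose. The fold changes had a median of -0.15 on the log2 scale (tunicamycin over DMSO), against -0.02 over all tested genes, and 30 of the 37 were negative. In 21 genes every tunicamycin library lay under every DMSO library, and in 2 (Syt4 and Stxbp5) every one lay above; over all tested genes these shares were 24.5% and 26.6%, or 51.1% together.

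The 12 vesicle genes had a median change of -0.18, the 12 SNARE genes -0.19, the 5 endocytic genes -0.13 and the 8 active zone genes 0.02. Summed over a class, the vesicle genes held 4223 to 4408 CPM with tunicamycin and 4886 to 5037 CPM with DMSO. The SNARE genes held 5845 to 6135 CPM with tunicamycin and 6901 to 7056 CPM with DMSO. The endocytic genes held 2204 to 2262 CPM with tunicamycin and 2358 to 2472 CPM with DMSO. In these 3 classes the groups did not overlap, whereas the active zone genes held 2019 to 2160 CPM with tunicamycin, within the 1942 to 2203 CPM of the DMSO libraries. These are bulk samples, in which fewer neurons and less RNA per neuron cannot be told apart. The summed neuronal markers were also lower, and the part of that shift, or of the lower astrocyte markers, in these class sums was not tested.

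**Figure D1:**
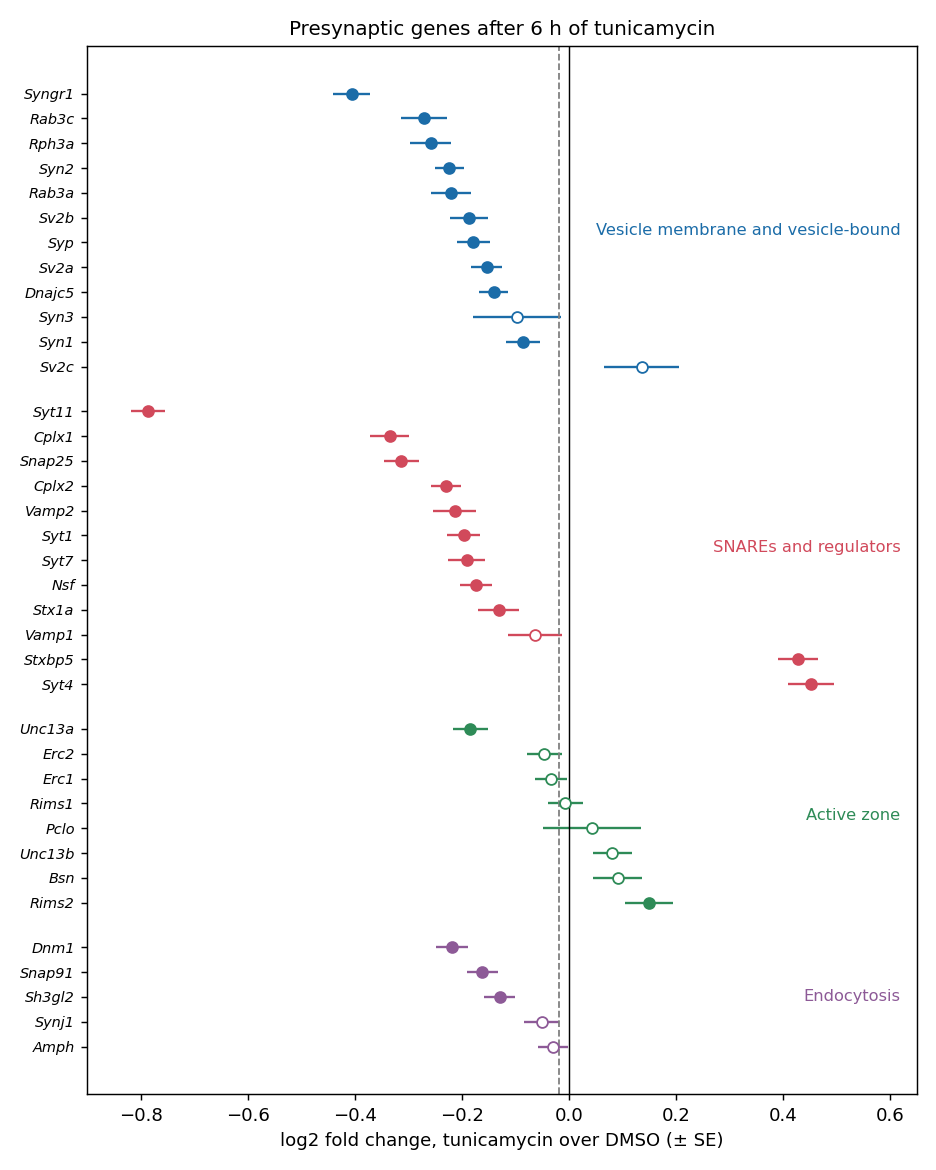
Log2 fold change (tunicamycin over DMSO) of each of the 37 genes, with its standard error, by class; filled symbols passed edgeR's test, open ones did not, and the dashed line is the median of all tested genes, -0.02. The vesicle, SNARE and endocytic genes lie mostly under 0, with Syt11 lowest at -0.79, while the active zone genes lie around 0 and Syt4 and Stxbp5 stand highest at 0.45 and 0.43.

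The libraries were sequenced in 3 lanes, given by the lane codes of the deposited tables, and each lane held both groups. The only DMSO library in lane 2 was DMSO replicate 3, and in lane 3 DMSO replicate 4. Values within those lanes therefore hold no spread among DMSO libraries. The median change of the 37 genes was -0.14, -0.18 and -0.10 within lanes 1, 2 and 3. The vesicle genes gave -0.17, -0.25 and -0.12, the SNARE genes -0.21, -0.20 and -0.10, and the endocytic genes -0.10, -0.16 and -0.13. The active zone genes stayed near 0 in each lane, at 0.03, 0.01 and -0.01. Upper-quartile scaling moved the median of all tested genes by -0.11, and under it 30 of the 37 genes fell and 2 rose. The shares of all tested genes that fell or rose under this scaling are not given here. The 32.5% and 31.8% belong to TMM scaling, so these counts cannot be read against them. The medians were then -0.27 for the 37 genes and -0.10 for the active zone genes, against -0.13 for all tested genes.

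Removing a smooth trend of the log2 change over exon GC content and exon length, an adjustment with no test, left the median of the 37 genes at -0.15 and turned none of the 26 changed genes round. It moved 7 of them by over 1.5 times. The value became -0.01 for Syn1, -0.02 for Stx1a, -0.11 for Rab3a, -0.22 for Cplx1, -0.14 for Dnm1, 0.08 for Rims2 and -0.31 for Syt1. After it, Rab3c (-0.40) lay lower than Syngr1 (-0.34). Snap25 (-0.43), Syt1 and Nsf (-0.24) then lay lower than Cplx1, and Snap91 (-0.23) and Sh3gl2 (-0.19) lower than Dnm1.

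On the vesicle, 10 of the 12 genes fell and none rose, where 32.5% of all tested genes fell and 31.8% rose. Syngr1 (chr15:80091334-80119501), which encodes synaptogyrin-1, a membrane protein of the vesicle related to synaptophysin, changed the most in the edgeR fit. Its level was 374.7 CPM at the lowest, 401 at the median and 425.7 at the highest with tunicamycin, and 526, 515, 550.2 and 519 CPM in the DMSO libraries 1 to 4. The highest tunicamycin library was well under the lowest DMSO library. Syngr1 fell by 0.41 ± 0.03 on the log2 scale (SE), a loss of 24.5%, with an adjusted p of 1.10e-09 by edgeR's test.

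The Rab3 GTPases, which tether vesicles to the release site through the RIM proteins, both fell. Rab3c (chr13:110054187-110280996) ranged over 296, 320.4 and 342 CPM (lowest, median, highest) with tunicamycin, against 354, 404, 378 and 409 CPM with DMSO. The lowest DMSO library was only just above the highest tunicamycin library, and the change was -0.27 ± 0.04 (edgeR adjusted p = 1.47e-05); within lane 1 alone it was -0.17, with an adjusted p of 0.0520. Rab3a (chr8:70754679-70758677), the vesicle gene with the highest level per kb of exon at 205 CPM per kb with DMSO, ranged over 360.0, 394 and 414 CPM with tunicamycin, against 465, 432, 477 and 454 CPM with DMSO. Here too the libraries did not overlap, and the change was -0.22 ± 0.04 (edgeR adjusted p = 2.26e-05). Rph3a, encoding rabphilin, which binds Rab3 on the vesicle, changed by -0.26 in the same direction.

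The other vesicle genes that fell changed by between -0.22 and -0.09. Among the synapsins, which tether vesicles to one another and to actin, Syn2 changed by -0.22 with no overlap between groups. Syn1 changed by only -0.09 (edgeR adjusted p = 0.0229) with overlapping libraries, was 0.04 within lane 3, and did not pass without DMSO replicate 1 (adjusted p = 0.0606) or without DMSO replicate 3 (adjusted p = 0.111). Syn3, at 9.42 CPM with tunicamycin and 10.1 CPM with DMSO, did not pass. The SV2 glycoproteins, membrane proteins of the vesicle with a transporter fold, were uneven: Sv2a changed by -0.15 and Sv2b by -0.19, whereas Sv2c, at 30.3 CPM with tunicamycin and 27.5 CPM with DMSO, did not pass and had a value of 0.14. Syp, encoding synaptophysin, changed by -0.18, and Dnajc5, encoding the cysteine string protein that chaperones SNAP25, by -0.14; both passed. Syp shares 16.8% of its exon length with an overlapping gene, and since the library kit does not mark strand its count is uncertain to that extent. Syn3 likewise shares 14.1%.

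**Figure D2:**
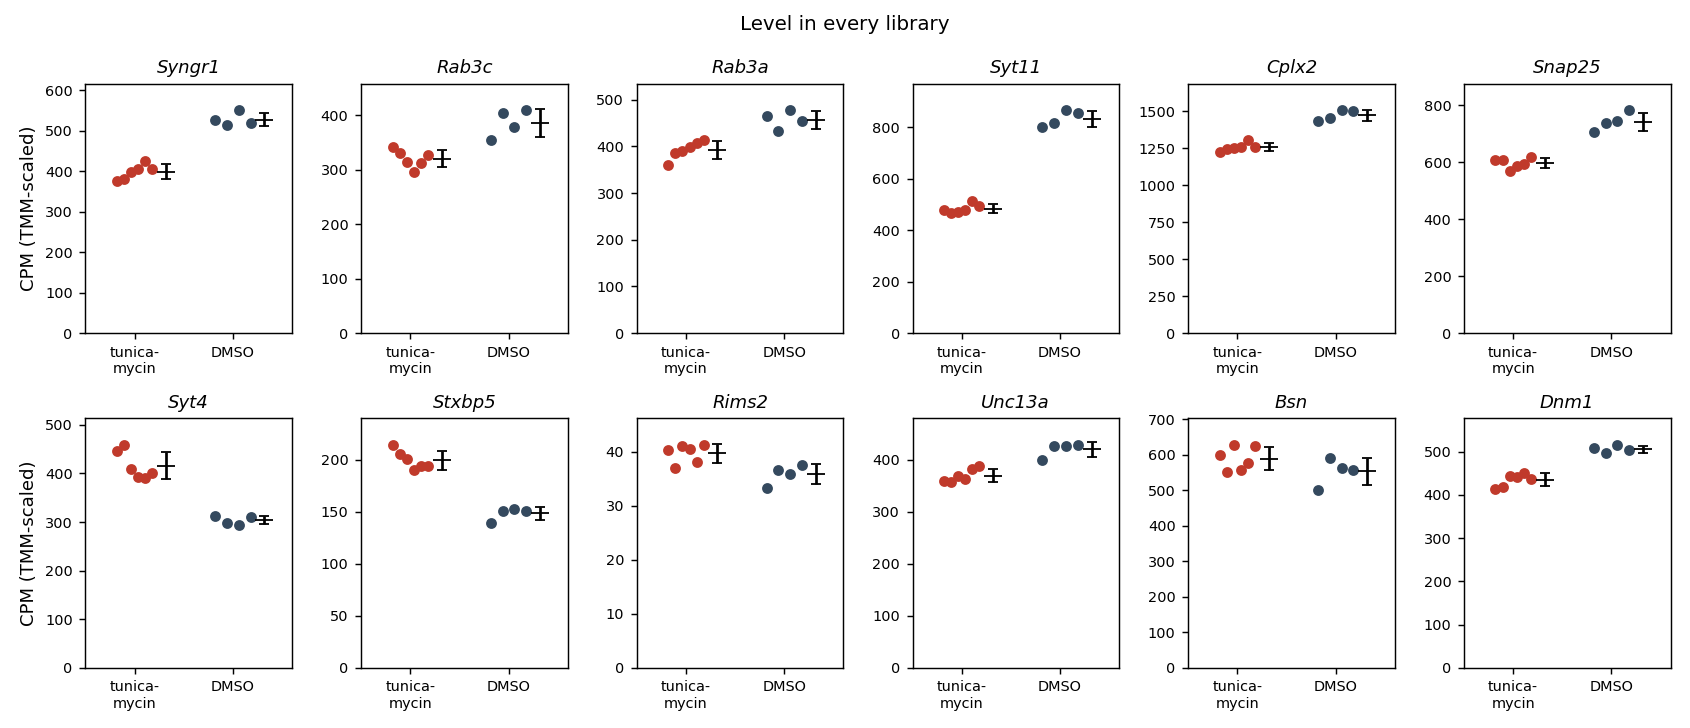
CPM in every library for 12 of the genes, tunicamycin at the left and DMSO at the right of each panel, with the group mean and SD beside the points. Syngr1, Rab3c, Rab3a, Syt11, Cplx2, Snap25, Unc13a and Dnm1 lie lower with tunicamycin in every library, Syt4 and Stxbp5 lie higher in every library, and Rims2 and Bsn overlap.

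Among the SNARE proteins and their regulators 9 of 12 fell and 2 rose, where 32.5% of all tested genes fell and 31.8% rose. This class held both the deepest fall and the steepest rises. Syt11 (chr3:88744700-88775164) encodes synaptotagmin-11, a member of the synaptotagmin family that does not bind calcium and has been tied to the restraint of endocytosis. It ranged over 465.0, 479 and 511 CPM with tunicamycin, against 800, 815, 865 and 853 CPM with DMSO. Every tunicamycin library was far under every DMSO library, and Syt11 fell by 42.0% (log2 change -0.79 ± 0.03, edgeR adjusted p = 5.23e-15). Within the 3 lanes the change was -0.77, -0.87 and -0.75.

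Syt4, encoding synaptotagmin-4, the closest relative of synaptotagmin-11 and likewise without calcium binding in its first C2 domain, moved the other way. It ranged over 392, 405 and 458 CPM with tunicamycin, against 313, 299, 294 and 309.5 CPM with DMSO. The groups did not overlap, and the change was 0.45 ± 0.04 (edgeR adjusted p = 1.48e-08). It was 0.56, 0.45 and 0.37 within lanes 1, 2 and 3. Syt4 shares 14.5% of its exon length with an overlapping gene, so part of its count may belong to that gene.

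Stxbp5 (chr10:9755547-9901079), encoding tomosyn-1, a soluble protein with an R-SNARE motif that occupies syntaxin and SNAP25 and so limits fusion, also rose. It ranged over 190.1, 197.5 and 214 CPM with tunicamycin, against 139.6, 151, 153 and 151 CPM with DMSO. All 6 tunicamycin libraries were above all 4 DMSO libraries, with a change of 0.43 ± 0.04 (edgeR adjusted p = 1.52e-09). DMSO replicate 1 was the lowest of its group by a clear gap, and without it the change was 0.40.

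The complexins, small proteins that clamp and then release the assembled SNARE complex, both fell. Cplx2 (chr13:54371349-54383917) had the highest level per kb of exon of all 37 genes, 298.5 CPM per kb with DMSO. It ranged over 1221, 1253 and 1303 CPM with tunicamycin, against 1430, 1451, 1505 and 1498 CPM with DMSO. The groups were well apart and the change was -0.23 ± 0.03 (edgeR adjusted p = 2.93e-07). Cplx1, at 356 ± 17.9 CPM with tunicamycin (SD, n = 6) and 449.5 ± 15.9 CPM with DMSO (SD, n = 4), changed by -0.34 (edgeR adjusted p = 5.31e-08).

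All of the genes for SNARE proteins of the fusion complex itself fell, apart from the low-level Vamp1. Snap25, the plasma membrane SNARE that gives the complex a pair of its helices, ranged over 568, 600.5 and 619.7 CPM with tunicamycin, against 706, 737, 744 and 783 CPM with DMSO, a change of -0.31 (edgeR adjusted p = 2.49e-08). Vamp2, the vesicle SNARE synaptobrevin-2, averaged 843 ± 45.4 CPM with tunicamycin and 977 ± 50.8 CPM with DMSO, and changed by -0.21. Within lane 3 alone the Vamp2 change was -0.08. Stx1a, encoding syntaxin-1A, changed by -0.13, and Vamp1 (23.1 CPM with tunicamycin, 24.1 with DMSO) did not pass. The calcium sensors for fast and for slower release, Syt1 and Syt7, changed by -0.20 and -0.19. Nsf, the ATPase that takes spent SNARE complexes apart, changed by -0.17. Syt1, Syt7, Stx1a and Nsf passed the test, without overlap between the groups.

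At the active zone, 1 of 8 genes fell, 1 rose and 6 did not pass, where 32.5% of all tested genes fell and 31.8% rose. Unc13a (chr8:71624417-71671757) encodes Munc13-1, which opens syntaxin to prime vesicles, and was the gene that fell. It ranged over 358, 365.5 and 388 CPM with tunicamycin, against 399, 427, 427 and 428 CPM with DMSO. The libraries did not overlap and the change was -0.18 ± 0.03 (edgeR adjusted p = 3.69e-05); without the low DMSO replicate 1 it was -0.21.

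Rims2 (chr15:39198261-39684372), encoding the Rab3-interacting scaffold RIM2, was the gene that rose. It ranged over 37.0, 40.4 and 41.2 CPM with tunicamycin, against 33.2, 36.5, 35.8 and 37.6 CPM with DMSO. The groups overlapped, and the change of 0.15 ± 0.04 (edgeR adjusted p = 0.00597) became 0.03 with an adjusted p of 0.499 under upper-quartile scaling. Within lanes 1, 2 and 3 it was 0.15, 0.19 and 0.09, and it did not pass within lane 1.

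Bsn (chr9:108096022-108190384), encoding the giant scaffold Bassoon, had the highest level per kb of this class, 34.7 CPM per kb with DMSO. It ranged over 552, 588 and 627 CPM with tunicamycin, against 501, 589.5, 563.5 and 556.5 CPM with DMSO. The groups overlapped in part, with some tunicamycin libraries above all DMSO libraries, and the value of 0.09 ± 0.05 did not pass (edgeR adjusted p = 0.0892). Its partner Piccolo, Pclo, had the widest spread among DMSO libraries of the class, 288 ± 40.8 CPM (SD, n = 4) against 297 ± 20.9 CPM with tunicamycin (SD, n = 6), and a value of 0.04. Both values turned negative under upper-quartile scaling, to -0.02 for Bsn and -0.07 for Pclo. Without DMSO replicate 2, Bsn (adjusted p = 0.0308), Unc13b (adjusted p = 0.0311) and the vesicle gene Sv2c (adjusted p = 0.0471) passed as higher, which raised the count of genes that rose to 6. Without tunicamycin replicate 2 that count was 5, with Bsn and Unc13b.

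The remaining active zone genes lay near 0. Rims1, encoding RIM1, had 159.5 ± 4.20 CPM with tunicamycin (SD, n = 6) and 160.2 ± 5.45 CPM with DMSO (SD, n = 4), a value of -0.01 ± 0.03. Unc13b, encoding Munc13-2, had a value of 0.08 (edgeR adjusted p = 0.0601), which was -0.03 under upper-quartile scaling. The ELKS scaffolds Erc1 and Erc2, which bind RIM and Bassoon, had -0.03 and -0.05. Erc1 shares 11.8% of its exon length with an overlapping gene. Erc1, Erc2 and Rims1 passed as lower under upper-quartile scaling, where the median of all tested genes was itself -0.13.

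In the endocytic class 3 of 5 genes fell and none rose, where 32.5% of all tested genes fell and 31.8% rose. Dnm1 (chr2:32308471-32353338), encoding the neuronal dynamin that pinches off recovered vesicles, ranged over 414, 439.7 and 452 CPM with tunicamycin, against 508, 497, 515 and 503 CPM with DMSO. There was no overlap, and the change was -0.22 ± 0.03 (edgeR adjusted p = 1.90e-06). Snap91 (chr9:86765923-86880654), encoding the clathrin adaptor AP180, which sets vesicle size and retrieves VAMP2, had 693, 709 and 722 CPM with tunicamycin, against 763, 782, 808 and 817 CPM with DMSO. Again the libraries did not overlap, with a change of -0.16 ± 0.03 (edgeR adjusted p = 4.15e-05). The class's highest level per kb was also that of Dnm1, at 96.3 CPM per kb with DMSO.

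Sh3gl2, encoding endophilin-A1, which curves the membrane at the vesicle neck, changed by -0.13 and passed. Amph, encoding amphiphysin, the protein that brings dynamin to that neck, did not pass at 409.7 ± 6.01 CPM with tunicamycin and 418 ± 10.0 CPM with DMSO (SD, n = 6 and 4). Synj1, encoding synaptojanin-1, the phosphatase that uncoats the vesicle, had a value of -0.05 (edgeR adjusted p = 0.188). Without DMSO replicate 1, the lowest of its group at 419.6 CPM, Synj1 passed at -0.08 (adjusted p = 0.0226).

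Whether close relatives shifted in step was asked with the ratio of their counts within each library, in which library size cancels. Of 13 pairs compared, 6 ratios differed between groups by an exact permutation test over the 10 libraries (210 arrangements), two-sided, at a Benjamini-Hochberg adjusted p under 0.05 over the 13 pairs. The smallest p this design allows is 0.00476. The share of other gene pairs whose ratio would differ was not computed, so whether 6 of 13 is unusual is not known. Over all tested genes, 64.3% changed and 51.1% showed no overlap between groups. The widest shift was between Syt4 and Syt11. The Syt4 to Syt11 count ratio ranged over 0.766, 0.844 and 0.986 (lowest, median, highest) with tunicamycin, against 0.392, 0.367, 0.340 and 0.363 in DMSO libraries 1 to 4. The 2 genes' counts were thus closer to equal in all 6 tunicamycin libraries, a log2 difference of 1.24 (exact p = 0.00476, adjusted p = 0.0206).

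The priming factors also separated. The Unc13a to Unc13b count ratio ranged over 3.32, 3.40 and 3.60 with tunicamycin, against 4.11, 4.01, 4.27 and 4.10 with DMSO, and the groups did not overlap (log2 difference -0.27, exact p = 0.00476, adjusted p = 0.0206). The Syn1 to Syn2 ratio ranged over 1.05, 1.09 and 1.13 with tunicamycin, against 0.995, 0.990, 0.997 and 0.964 with DMSO, again without overlap (0.14, exact p = 0.00476, adjusted p = 0.0206). The Rims1 to Rims2 ratio was lower with tunicamycin, at 3.80 to 4.21 against 4.35 to 4.58 with DMSO (log2 difference -0.16, exact p = 0.00952, adjusted p = 0.0310). So was the Sv2b to Sv2c ratio, at 14.0 to 19.7 against 19.9 to 25.3 with DMSO (-0.32, exact p = 0.0143, adjusted p = 0.0371). Because the groups of these 5 pairs did not overlap, their same direction within all 3 lanes was fixed in advance and adds no support.

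The Cplx1 to Cplx2 ratio also passed (log2 difference -0.11, exact p = 0.0190, adjusted p = 0.0413), but its groups overlapped and it was -0.22, -0.05 and 0.00 within lanes 1, 2 and 3. The other 7 pairs did not pass, among them Vamp1 to Vamp2 (0.15, exact p = 0.0667, adjusted p = 0.124), Syn2 to Syn3, Sv2a to Sv2b, Rab3a to Rab3c, Syt7 to Syt1, Bsn to Pclo and Erc1 to Erc2. For the last 5 of these the log2 differences lay between 0.00 and 0.05 in size. Within lane 1 all 5 were negative, from -0.13 to -0.04, and within lane 3 all 5 were positive, from 0.07 to 0.21. The small values therefore join lanes of opposite sign. Without DMSO replicate 1 or without DMSO replicate 3 no pair passed, the smallest adjusted p being 0.0516 with 9 libraries; the log2 difference of Syt4 to Syt11 was then 1.27 and 1.20. The Sv2b to Sv2c call was lost when any 1 of the 4 DMSO libraries was left out (adjusted p between 0.0619 and 0.111). The Cplx1 to Cplx2 call was lost without DMSO replicate 1, 2 or 3 and without tunicamycin replicate 1, 2, 3, 4 or 6 (adjusted p between 0.0516 and 0.232).

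**Figure D3:**
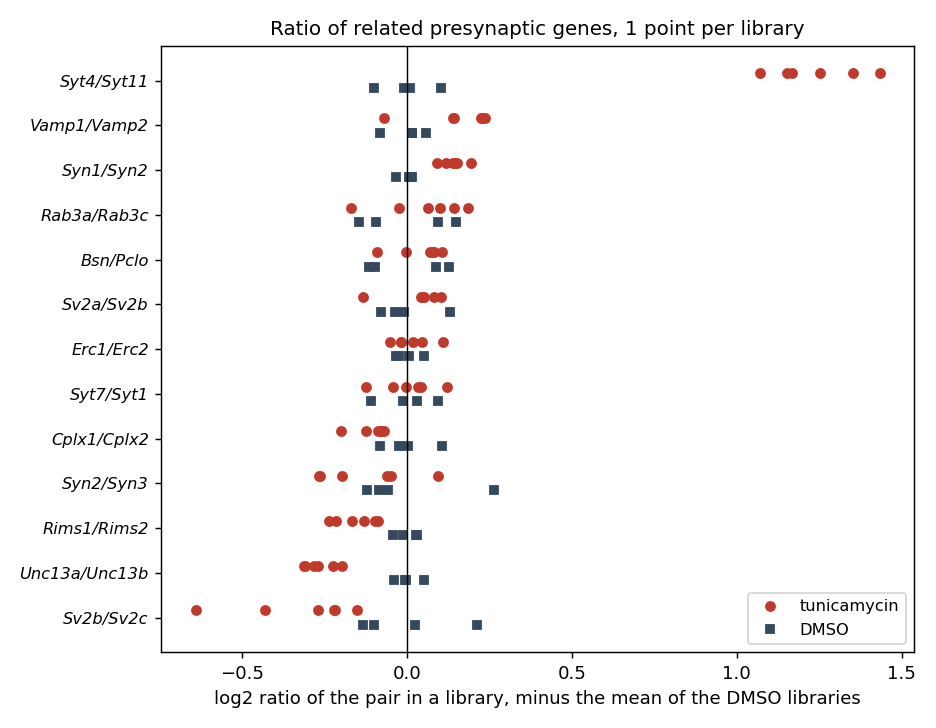
Log2 ratio of the counts of related genes for the 13 pairs, 1 point per library, minus the mean of the DMSO libraries; tunicamycin circles lie above DMSO squares in each row. Syt4/Syt11, Syn1/Syn2, Unc13a/Unc13b, Rims1/Rims2 and Sv2b/Sv2c show no overlap between groups, and Syt4/Syt11 differs the most, by 1.24.

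The change of a gene went with its abundance and length within this set more than over all tested genes, as a description. Over the 37 genes, which share these 10 libraries, Spearman's rho of the log2 change was -0.61 with the DMSO level per kb of exon and -0.54 with the DMSO CPM; over 15620 tested genes with an annotation it was -0.00 and 0.04. The DMSO level enters both axes of this relation. With gene span, the distance from first to last annotated base, rho was 0.40 over the 37 genes and 0.09 over all tested genes, and with exon length 0.46 and 0.12. The 8 active zone genes lay between 3.44 and 34.7 CPM per kb with DMSO, and 6 of them span over 100 kb. Without them, rho with span was 0.19 and with level per kb -0.48 over 29 genes. The relation with GC content was weaker, -0.28 against -0.14 over all tested genes.

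Split by span, 7 of the 17 genes over 100 kb fell and 2 rose, with a median of -0.05. Of the 2329 tested genes of that span 688 fell and 780 rose, with a median of 0.02. Of the 20 shorter genes 16 fell and 1 rose, with a median of -0.19. Among the 13291 shorter genes tested 4390 fell and 4195 rose, with a median of -0.02. The short and abundant Cplx2, Vamp2, Cplx1 and Rab3a, all over 200 CPM per kb with DMSO, fell by 0.23, 0.21, 0.34 and 0.22 on the log2 scale. The genes at the low end of expression, Syn3 (0.823 CPM per kb with DMSO), Vamp1 (2.37) and Sv2c (2.84), did not pass. Syt4, a short gene of 9.60 kb at 78.1 CPM per kb with DMSO, was the one gene under 100 kb that rose.

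**Figure D4:**
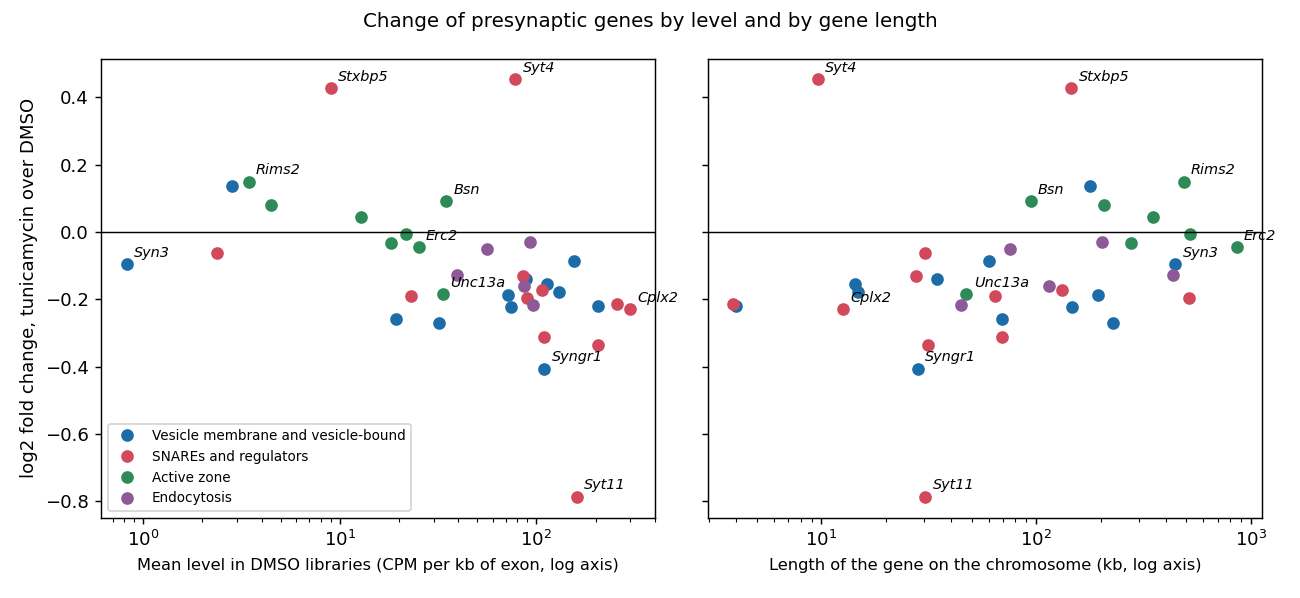
Log2 fold change (tunicamycin over DMSO) of the 37 genes against their DMSO level in CPM per kb of exon and against gene span in kb, both on log axes, coloured by class. Abundant and short genes lie lower, with rho of -0.61 and 0.40, and the extreme points are Syt11 at -0.79, Syt4 at 0.45 and Stxbp5 at 0.43.

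The 26 genes that changed were the same 26 of the 37 that the authors' deposited table lists, 23 as lower and 3 as higher, and their log2 fold changes there differed from edgeR's by at most 0.006. The authors' deposited table used the same 10 libraries, so this compares methods and not experiments.

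Other genes of the presynaptic terminal, 69 in a list by the same 4 roles, gave 32 that fell and 15 that rose of 68 tested, with a median of -0.08. Over all tested genes 32.5% fell and 31.8% rose, with a median of -0.02. Of the 17 other vesicle genes 11 fell and 2 rose. Sypl, a synaptophysin relative found on transport vesicles outside neurons as well, had 50.7 ± 2.23 CPM with tunicamycin (SD, n = 6) and 32.7 ± 2.05 CPM with DMSO (SD, n = 4), a change of 0.63, while the SV2-related Svop changed by -0.28. Of the 13 other SNARE genes tested 8 fell and none rose, with Snap29 (-0.32) and Napb (-0.27), a SNAP cofactor of NSF, having the smallest p. Cplx3 was not tested.

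Among 16 other active zone genes 4 fell and 7 rose, with a median of 0.03, where 32.5% of all tested genes fell and 31.8% rose. Rab3gap2, a subunit of the Rab3 GTPase-activating complex, changed by 0.40, and Ppfia4, encoding liprin-alpha-4, by -0.38. Of 22 other endocytic genes 9 fell and 6 rose, with a median of -0.03, close to the -0.02 of all tested genes. Synj2, the widely expressed relative of Synj1, changed by 0.51 and the clathrin adaptor Eps15 by 0.47. The 8 genes named from this list were picked as the called genes of smallest p for each role. That they passed the edgeR test was therefore fixed by the choice, and their lack of overlap between groups adds no support. The other endocytic genes summed to 5532 to 5726 CPM with tunicamycin and 5629 to 5723 CPM with DMSO, whereas the other vesicle genes summed to 1541 to 1656 CPM with tunicamycin and 1776 to 1856 CPM with DMSO.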

How the data were processed

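RNA-seq libraries of hippocampal cultures (6 with tunicamycin, 4 with DMSO) were grouped by their labels. The authors deposited unnormalized whole-number counts per Ensembl gene; per the labels' protocols reads were single-end and the kit was TruSeq RNA v2, whose libraries carry no strand information. Without giving roles, the submitters' processing notes name mm10, DESeq2, Subread 1.5.1 with featureCounts, STAR 2.5.2b and FastQC 0.11.5. For the annotation release, strand setting and multi-mapping reads the sources used here give nothing, and reads in overlapping exons may be lost or assigned to either gene. The authors also deposited a log2 fold change, an adjusted p-value and a normalized signal per library for the genes they listed; the signal was proportional to the counts in each library and enters no result.

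GENCODE M21 on GRCm38 named 48349 of the identifiers; the 360 others held 0.0462% of counts. Tests used R 4.3.3 and edgeR 4.0.16 (robust quasi-likelihood, TMM, filterByExpr, no covariate, two-sided, Benjamini-Hochberg over 15660 genes, adjusted p under 0.05), checked on simulated counts. Biological coefficient of variation was 0.049. Alternatives were RLE and upper-quartile scaling, DESeq2 1.42.0, other filters, a lane term, lanes alone, a replicate block, each library left out, and removal of a GC and length trend. Per-library values were given, in each class, for the 2 called genes with the largest change, the highest level per kb, and called genes moving against their class; Snap25 was added to these after its values were seen, as were the means of others. Outside the 37 genes, the 2 called genes of smallest p in each list were named. The genes and lists were chosen with earlier results of these data known. Libraries of a group differed by more than counting noise (chi-square per degree of freedom 2.18 to 10.5 between libraries), so none was merged. Mitochondrial genes held 2.97% to 3.41% of counts with tunicamycin and 3.67% to 3.87% with DMSO.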

Additional observations from a re-analysis of the deposited data

Results flagged for a closer look

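Of 74 groups of values screened (37 genes in each group), 4 had a library whose gap to its nearest neighbour was large for the group's range, a screen that marks about 1 group in 20 by chance. All 4 were in the DMSO group, where DMSO replicate 1 was the lowest library. Stxbp5 stood at 139.6 CPM there, with the other DMSO libraries at 150.8 to 152.9 CPM. Rims1 stood at 152.1 CPM, with the others at 162.2 to 163.4 CPM. Unc13a stood at 399.1 CPM, with the others at 426.7 to 428.4 CPM. Synj1 stood at 419.6 CPM, with the others at 458.4 to 465.0 CPM. Without DMSO replicate 1, 23 genes fell and 3 rose as before, but Syn1 no longer passed and Synj1 did.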

How the results depend on the processing

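The count of genes that fell, 23, lay between 22 and 23 when each library was left out. It was 30 under upper-quartile scaling, where the median of all tested genes was itself -0.13, and 17 within lane 1. The count that rose, 3, was 6 with no filter on low counts, 5 within lane 2 alone and 3 to 6 when each library was left out. The median change, -0.15, was -0.27 under upper-quartile scaling, -0.18 within lane 2, -0.10 within lane 3 and -0.17 to -0.14 with a library left out. Within lane 1 alone, which holds fewer libraries, Rab3c, Rims2, Sh3gl2, Snap91, Sv2b, Syn1 and Syt1 did not pass. The count that rose within lane 2 alone had DMSO replicate 3 as its only DMSO library, so no conclusion is drawn from it. All other counts of calls within lanes 2 and 3 are left out, since DMSO replicate 3 or DMSO replicate 4 alone stood for DMSO there. RLE scaling, DESeq2, a minimum of 1 CPM and a lane term lost or gained no call, and removal of a GC and length trend, which has no test, turned no changed gene round but put Pclo at -0.02. Values that changed sign, none of them past the threshold in the setting, were Syn1 within lane 3 (0.0354), Syn3 within lane 1 (0.0083), Erc2 within lane 1 (0.0325), Synj1 within lane 1 (0.0013), Bsn (-0.0232), Pclo (-0.0715) and Unc13b (-0.0334) under upper-quartile scaling, and Pclo within lane 3 (-0.0593) and without DMSO replicate 1 (-0.0381, the lowest of a range up to 0.1176). Rims1, at -0.01, was 0.0026 by DESeq2, 0.0138 with no filter, 0.0327 within lane 1, and -0.0304 to 0.0078 with a library left out. The cause was not tested.

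The number of ratios that differed, 6, was 0 to 7 when each library was left out. The Cplx1 to Cplx2 ratio was 0.0029 within lane 3. The Syt7 to Syt1 ratio ranged over -0.0332 to 0.0346 with a library left out and Erc1 to Erc2 over -0.0052 to 0.0310. Adding 0.5 count to both genes changed no call.

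Libraries numbered 1 to 4 occur in both groups, but same-numbered libraries did not deviate together (correlations of -0.22, 0.01, -0.06 and -0.07), so the numbers were not taken as pairs. With the replicate block on these 8 libraries 23 genes fell and 3 rose, the same 26 genes; without the block on the same libraries, a fit chosen after seeing the data, 23 fell and 4 rose. For the ratios the replicate block left 0 pairs (smallest adjusted p = 0.232, from 16 sign flips, which cannot reach the threshold), with -0.0137 for Syt7 to Syt1 and -0.0019 for Erc1 to Erc2.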
